A study of Mus musculus with 6 samples.

Results

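Secretory mammary luminal progenitor nuclei were examined in the inguinal subcutaneous adipose tissue (SAT) of female C57BL/6J mice. The fat pad surrounds a mammary gland, and nuclei of the gland's ducts are released with those of the fat. Member nuclei were chosen by their raw UMI counts (unique molecular identifiers, each counted as 1 captured RNA). Kept nuclei had more than 500 detected genes and 1000 UMIs, of which under 15% were mitochondrial. It was a member with at least 1 UMI of the epithelial genes Epcam, Cdh1, Ehf, Esrp1 and Grhl2, at least 3 UMIs of Csn3, Kit, Ltf, Wfdc18 and Elf5, and more of these than of Areg, Prlr and Pgr. At most 1 UMI of Ptprc, Skap1, Ptprb, Pdgfra, Upk3b and Plin1, genes of immune, endothelial, fibroblast, mesothelial and adipocyte nuclei, was allowed. This gave 811 nuclei of 17570 kept SAT nuclei, in a series of 27074 kept nuclei and 50859 barcodes. They were 143 and 120 nuclei in the libraries of 2-month-old mice and 228 and 320 in those of 24-month-old mice.

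The mammary epithelium is a bilayer of luminal cells over contractile basal cells. Luminal cells fall into hormone-sensing cells, which carry the receptors for oestrogen, progesterone and prolactin, and KIT-positive secretory progenitors, which depend on the transcription factor ELF5 and give rise to the milk-producing alveolar cells of pregnancy. In the resting gland the secretory progenitors already transcribe some milk and antimicrobial protein genes, and they receive paracrine signals from their hormone-sensing neighbours.

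Single-nucleus RNA sequencing had been done on 2 SAT libraries per age, and the study states 2 mice per age. All mice were untreated wild-type females. The sample labels give the older age as 24 months and the design text of the series as 26 months, and 24 months is used here. Nothing in the labels ties a library to a mouse, so p-values measure the spread between libraries, which may be partly technical. The 2 libraries of gonadal visceral fat (VAT) at 24 months are used only for a check of the rule, and VAT at 2 months was not analysed here.

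The 4 SAT libraries held 8061862 to 15253892 UMIs and 2490 to 5776 kept nuclei. Summed over members, 357947 and 224608 UMIs were available at 2 months, and 705585 and 885785 at 24 months. The median member held 1984 and 1604 UMIs at 2 months and 2264.5 and 1940 at 24 months, which is below the 3220.5 to 3488.5 UMIs of hormone-sensing nuclei. The median mitochondrial share of members was 0.644% and 0.263% at 2 months, and 3.66% and 1.97% at 24 months, so the older libraries were higher in every case. A single member barcode occurred in a pair of libraries, both at 24 months, and between any pair of SAT libraries no more than 0.482% of the smaller one's kept barcodes recurred.

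Members sat well past the rule's limit in most cases. Of nuclei that met every other condition, 80 had 1 secretory UMI and 46 had 2, just outside, whereas 55 had 3 and 49 had 4, just inside. The median member carried 14, 8, 14 and 13 secretory UMIs in the 4 libraries (in the order 2 months replicates 1 and 2, then 24 months replicates 1 and 2), and the highest carried 284. In all, 508 members had 10 or more, 125 had all 5 secretory genes detected, and 41 had only 1 of them. A UMI of another cell type, which the rule permits, was present in 158 members.

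**Figure D1:**
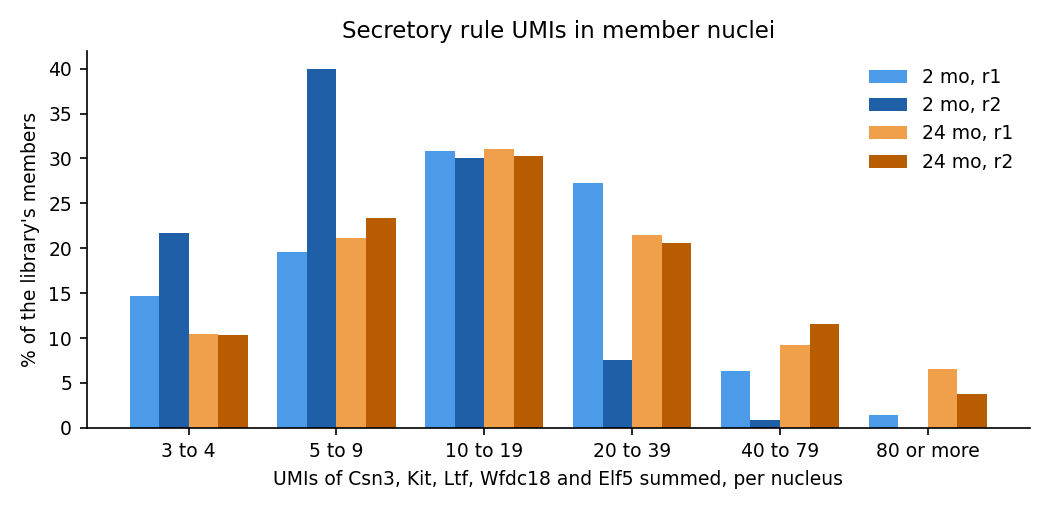
Share of each library's members (y axis, %) by the summed UMIs of Csn3, Kit, Ltf, Wfdc18 and Elf5 in a nucleus (x axis). The 2-month replicate 2 library lies lowest, with a median of 8 UMIs against 13 and 14 in the other libraries.

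The 5 genes of the rule mark different sides of the secretory state, and their levels are a description since they chose the nuclei. Csn3, which encodes the micelle-stabilizing milk protein kappa-casein (chr5:88073438-88080524, plus strand, GRCm39), was at 2682 and 1269 CPM (the usual scaled count, here of the gene's UMIs against all UMIs of a library's members) at 2 months and at 2302 and 2422 CPM at 24 months. Kit, the stem cell factor receptor (chr5:75735576-75817404, plus strand), was at 1984, 1545, 1559 and 2117 CPM in the same order. Ltf, which encodes the iron-binding antimicrobial protein lactoferrin (chr9:110848339-110871835, plus strand), was at 1352, 1215, 2331 and 1359 CPM. The ages overlapped for Csn3 and Kit, whereas both older libraries were above both younger ones for Ltf, by a narrow margin.

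Wfdc18, which encodes a small secreted WAP-domain protein (chr11:83599841-83602174, plus strand), was at 950 and 641 CPM at 2 months and at 1385 and 1955 CPM at 24 months, and the ages did not overlap. Elf5, the transcription factor of the alveolar lineage (chr2:103242033-103281334, plus strand), was at 436, 508, 509 and 325 CPM. Kit was detected in 83.3% to 89.1% of members, Csn3 in 55.0% to 75.5% and Elf5 in 39.7% to 57.0%. With every nucleus thinned to 1000 UMIs these shares were 68.0% to 80.4%, 45.8% to 67.8% and 26.6% to 34.2%. Immune nuclei, taken as a reference for detection outside the epithelium, with median depths of 1367 to 1665 UMIs, showed Kit in 2.13% to 4.89%, Csn3 in 1.06% to 3.06% and Elf5 in 0.690% to 1.07%. Members were chosen for these genes, so their detection is a description.

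The label was checked against 15 further markers of secretory progenitors. Of these, 14 had enough counts (at least 20 UMIs in both luminal classes together), and 7 were over 2-fold higher than in hormone-sensing nuclei in all 4 libraries, namely Aldh1a3, Mfge8, Lcn2, Plet1, Hey1, Sox10 and Tspan8. Over all 12955 genes so described, 185 (1.43%) were that much higher and 102 (0.787%) that much lower. Folds here were computed on CPM plus 50. Against the remaining kept SAT nuclei, a set that leaves out both secretory and hormone-sensing nuclei, Cd14, a lipopolysaccharide co-receptor, was also higher. None of the 14 was lower in this sense, and their median log2 difference was 1.53, against 0.01 over all genes. This contrast was fixed by the rule and has no test.

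Markers of other cells were not all absent. In members the 10 immune markers summed to 542, 659, 186 and 166 CPM, the adipocyte list to 288 to 647 CPM and the fibroblast list to 70.9 to 303 CPM, each below the remaining SAT nuclei of the same library. The 12 basal markers summed to 380, 129, 245 and 292 CPM in members and to 293, 328, 278 and 322 CPM in the remaining nuclei, which overlap. The 10 skin keratinocyte markers summed to 5.59, 17.8, 45.4 and 20.3 CPM in members and to 10.8, 9.85, 16.2 and 11.4 CPM in the remaining nuclei. Dsg1a, Lor, Sbsn and Krtdap were at 0 in members, while Krt10 had UMIs in 23 of them. The mesothelial list summed to 8.38, 4.45, 19.8 and 14.7 CPM in members and to 13.0, 14.0, 18.1 and 6.21 CPM in the remaining nuclei. Wt1 was at 0 in members, and Upk3b, which the rule limits, was also at 0 in members of every library. At least 3 UMIs of the basal genes Krt5, Krt14, Krt17, Trp63 and Oxtr were found in 36 of the 811 members.

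Promoter sequences were read for genes on which the results turn. RefSeq windows (GRCm38.p6, 250 bases before to 50 after the gene's start) were found for 15 of 21 genes looked up, and those of Wfdc18, a rule gene, and of Fcgbp, a gene called with age below, are shown with matches to the TATA-box letters TATANA on either strand in capitals. The window of Wfdc18 is chr11:83708754-83709053 and that of Fcgbp chr7:28070986-28071285, both on the plus strand.
Wfdc18: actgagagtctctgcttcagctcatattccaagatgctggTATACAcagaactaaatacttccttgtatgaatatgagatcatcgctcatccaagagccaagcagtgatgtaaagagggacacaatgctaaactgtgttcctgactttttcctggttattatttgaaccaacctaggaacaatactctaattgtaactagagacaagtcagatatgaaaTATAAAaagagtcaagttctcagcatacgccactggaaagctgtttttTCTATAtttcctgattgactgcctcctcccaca
Fcgbp: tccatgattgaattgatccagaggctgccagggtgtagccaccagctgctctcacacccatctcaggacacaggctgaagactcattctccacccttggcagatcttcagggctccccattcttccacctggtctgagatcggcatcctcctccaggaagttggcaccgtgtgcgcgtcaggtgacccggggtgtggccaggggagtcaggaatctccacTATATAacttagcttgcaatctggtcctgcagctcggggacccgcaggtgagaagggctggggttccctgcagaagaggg
In both windows a match began close to the usual place of a TATA box, 31 bases before the start in Wfdc18 and 30 bases before it in Fcgbp. Wfdc18 held 2 further matches, 210 bases before and 17 bases after the start, the last on the other strand. Of all 32851 windows of this length, 24.7% held the letters anywhere, as did 5 of the 15 looked up. The STAT5-type letters TTCNNNGAA, which read the same on both strands, were in 8.30% of all windows and in that of Fgb alone among the 15. A match is a run of letters and no evidence of binding.

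Against the remaining kept SAT nuclei, without the hormone-sensing ones, 294 of 22627 genes (1.30%) were over 2-fold higher in all 4 libraries and 175 (0.773%) lower. The 15 with the highest mean fold were Csn3, Gpc6, Itprid1, Ltf, Igfbp5, Kit, BC006965, Wfdc18, Erbb4, Fcgbp, Atp6v1b1, Lcn2, Btn1a1, Adgrl3 and Trps1. Gpc6, a cell-surface heparan sulphate proteoglycan, was at 6269, 5516, 3444 and 4280 CPM in members and at 179 to 236 CPM in the other nuclei. Igfbp5, a secreted binding protein for insulin-like growth factors, was at 4339, 3495, 2557 and 5063 CPM in members and at 128 to 366 CPM in the remaining nuclei. Lcn2, the iron-scavenging defence protein lipocalin 2, was at 665, 476, 870 and 800 CPM. Both older libraries were lower for Gpc6 and higher for Lcn2, but neither gene was called with age (adjusted p = 0.622 and 0.451, edgeR), and the ages overlapped for Igfbp5.

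Set against the hormone-sensing luminal nuclei, their closest neighbours in the duct (477 nuclei with at least 3 UMIs of Areg, Prlr and Pgr and more of these than of the secretory genes), the 15 highest genes were Gpc6, Erbb4, Itprid1, Adgrl3, Efna5, Csn3, Dlg2, BC006965, Wnt5b, Celf2, Map2, Btn1a1, Csmd1, Atp6v1b1 and Kit. Erbb4, a neuregulin receptor needed for lactation (chr1:68071345-69147619, minus strand), was at 1662, 2351, 1155 and 1555 CPM in secretory nuclei and at 137, 113, 70.5 and 166 CPM in hormone-sensing ones. Btn1a1, a protein of the milk fat globule membrane (chr13:23641162-23650071, minus strand), was at 941, 494, 737 and 509 CPM against 50.3 to 86.2 CPM. Wnt5b, a secreted WNT ligand, was at 564, 574, 1083 and 884 CPM against 54.0 to 118 CPM. Each library held these 3 genes higher in its secretory nuclei. Celf2, an RNA-binding protein, was higher against hormone-sensing nuclei, but the remaining SAT nuclei held it at 587 to 1390 CPM, about the 986 to 1171 CPM of members.

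The 10 lowest against hormone-sensing nuclei were Areg, Nrxn3, Piezo2, Pgr, Slc7a2, Ptn, Prlr, Slc12a2, Agtr1a and Gpx3. Of the 12 further hormone-sensing markers, 6 were lower in all 4 libraries (Esr1, Foxa1, Cited1, Wnt4, Stc2 and Ptn, background 0.787%) and none was higher, with a median log2 difference of -1.81. Foxa1, the pioneer factor of the hormone-sensing lineage, was at 67.0, 0, 63.8 and 98.2 CPM in secretory nuclei and at 351, 237, 523 and 526 CPM in hormone-sensing ones. Foxa1 and Ptn were lowest in the 2-month replicate 2 library, Ptn, a heparin-binding growth factor, at 22.3 CPM there against 77.9 to 439 CPM in the others.

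**Figure D2:**
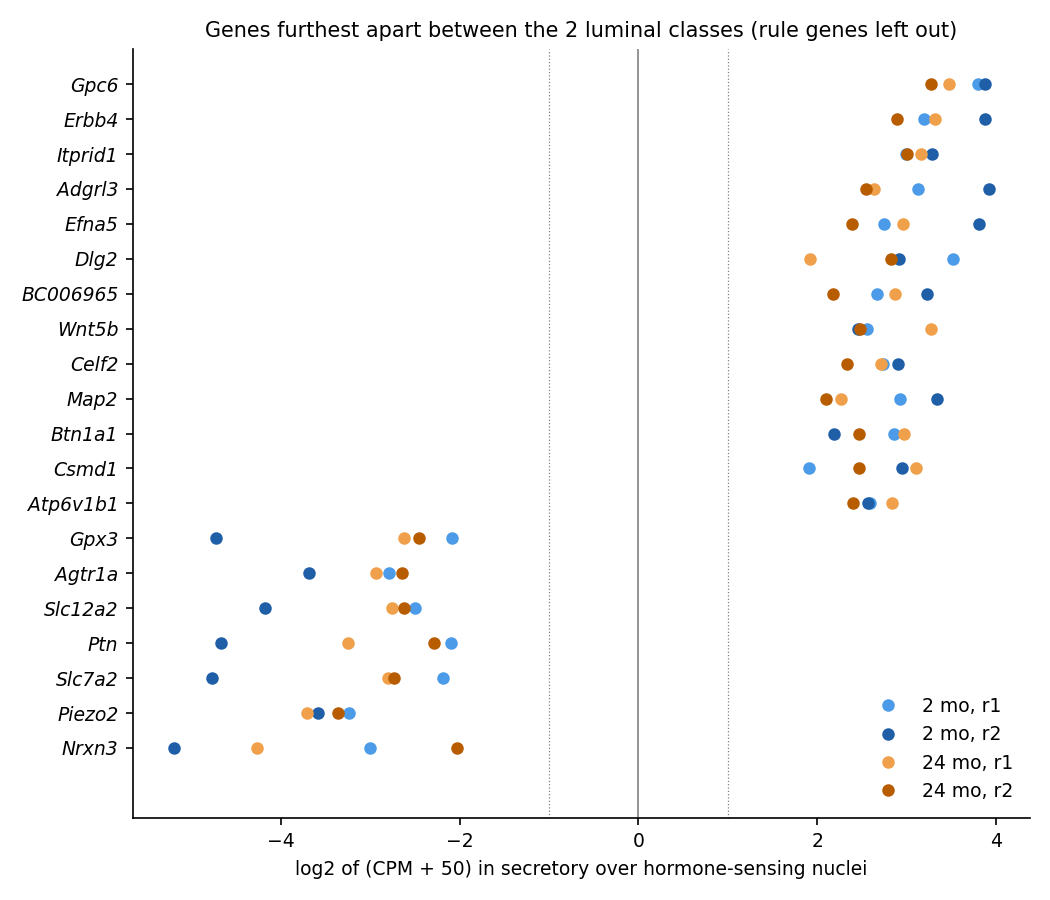
Log2 ratio of CPM plus 50 in secretory over hormone-sensing nuclei (x axis) for the genes furthest apart, without rule genes (y axis), with a point for each of the 4 libraries and dotted lines at 2-fold. Each point of the upper 13 genes is right of 1 and each of the lower 7 left of -1.

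The milk programme was partly present. Of 11 milk protein genes outside the rule, Mfge8, Btn1a1 and Xdh were over 2-fold higher than in hormone-sensing nuclei in all 4 libraries, of 6 with enough counts (background 1.43%). Of these genes, Mfge8 and Btn1a1 were also that much higher than in the remaining nuclei, and Xdh was not. Mfge8, a phosphatidylserine-binding protein of the milk fat globule, was at 1252, 971, 2047 and 2148 CPM, and Xdh, xanthine dehydrogenase of the same globule, at 472, 383, 237 and 172 CPM. Casein and whey protein genes of full lactation had few UMIs. In all, 120 UMIs of Csn1s1, Csn1s2a, Csn1s2b, Csn2, Lalba and Wap lay in 32 of 811 members, and Wap, whey acidic protein, had no UMI. Of 18 genes of milk lipid synthesis, 16 had enough counts and none was higher than in hormone-sensing nuclei in all 4 libraries. Dgat2, an enzyme of triglyceride synthesis, was lower (background 0.787%). With age, none of the 6 milk protein genes and none of the 13 lipid genes tested was called (edgeR, adjusted p at least 0.0980 and 0.0906).

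Growth factor receptors were set against their ligands next. Among 14 KIT and ERBB ligands and receptors outside the rule, Egfr, Erbb4 and Nrg2 were higher than in hormone-sensing nuclei in all 4 libraries, of 11 with enough counts (background 1.43%). Of these genes, Erbb4 and Nrg2 were also over 2-fold higher than in the remaining nuclei in all 4 libraries, and Egfr was not. Nrg2, a neuregulin that binds ERBB receptors, was at 305 and 272 CPM at 2 months and at 92.1 and 148 CPM at 24 months, without overlap, but its age difference was not called (log2 -1.23, adjusted p = 0.0777, edgeR). Kitl, the KIT ligand, was at 313, 272, 269 and 310 CPM in secretory nuclei, while hormone-sensing nuclei held 191 and 136 CPM at 2 months and 594 and 529 CPM at 24 months. Kit itself, a rule gene, is given above.

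Of 17 receptors of paracrine signals with enough counts, 4 were higher than in hormone-sensing nuclei in all 4 libraries, namely Lgr6, Igf1r, Ghr and Met (background 1.43%). Lgr6 and Met were also over 2-fold higher than in the remaining nuclei in all 4 libraries, and Igf1r and Ghr were not. Lgr6, an R-spondin receptor, was at 302, 352, 293 and 351 CPM against 26.8 to 46.0 CPM. Met, the receptor of hepatocyte growth factor, was at 517, 450, 567 and 621 CPM against 59.1 to 118 CPM. Tnfrsf11a, which encodes RANK, the receptor for the paracrine progesterone signal, was at 64.3, 125, 90.7 and 61.0 CPM, and its ligand gene Tnfsf11 reached at most 2.83 CPM in members. None of the 17 receptor genes tested was called with age.

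Among 19 luminal transcription factors outside the rule, Sox10, Tfap2c and Nfib were higher and Foxa1 and Esr1 lower than in hormone-sensing nuclei in all 4 libraries. For this and the next pair of lists the background is 1.43% higher and 0.787% lower. Sox10 was at 349, 312, 316 and 279 CPM against 53.7 to 75.6 CPM. Gata3, a general luminal factor, was at 735, 521, 618 and 672 CPM in members and at 1264 to 1745 CPM in hormone-sensing nuclei. In the Notch pathway, Hey1 and the co-activator Maml2 were higher and the ligand Jag1 was lower, of 13 genes with enough counts. In the prolactin list, only Nfib was higher among 12 genes.

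The genes of this prolactin list include Stat5a, the factor that carries the prolactin signal into the nucleus. It was at 299 and 160 CPM at 2 months and at 97.8 and 106 CPM at 24 months in members, without overlap (log2 -1.17, adjusted p = 0.105, edgeR, not called). Hormone-sensing nuclei held 1240 and 1114 CPM at 2 months and 107 and 217 CPM at 24 months. Of 15 pan-epithelial markers none was higher than in hormone-sensing nuclei in all 4 libraries, and Krt7 and Krt19, luminal keratins, were lower. The background is 1.43% higher and 0.787% lower. Krt19 was at 411, 209, 721 and 651 CPM against 1498 to 1755 CPM.

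The share of secretory nuclei was compared between ages to ask how the epithelium's part in the tissue differs. They made up 3.11% (95% exact Clopper-Pearson interval 2.63 to 3.66) and 2.08% (1.73 to 2.48) of kept nuclei in the younger libraries. In the older libraries they made up 9.16% (8.05 to 10.4) and 6.80% (6.09 to 7.55). The ages did not overlap. The mean share was 2.59% ± 0.732 (SD, n = 2) at 2 months and 7.98% ± 1.67 (SD, n = 2) at 24 months. These means lay 5.38 percentage points apart (exact permutation test over libraries, two-sided, p = 0.333, and 2 against 2 libraries allow no p under 0.33). Intervals cover counting error only.

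Within the luminal epithelium, secretory nuclei were 44.5% (39.0 to 50.2) and 55.8% (48.9 to 62.6) in the younger libraries. The older ones gave 76.5% (71.3 to 81.2) and 70.5% (66.1 to 74.6). Here too the ages did not overlap, with means of 50.2% ± 7.97 and 73.5% ± 4.26 (SD, n = 2 each) and a difference of 23.3 points (exact permutation test, p = 0.333). Hormone-sensing nuclei numbered 178, 95, 70 and 134, and nuclei assigned to basal cells by the 5 basal genes above numbered 29, 26, 15 and 31. Nuclei that met the epithelial and other-cell conditions numbered 478, 471, 421 and 653, so some had no class. Among hormone-sensing nuclei, Areg was detected in 90.4%, 97.9%, 51.4% and 82.8%, Pgr in 91.0%, 85.3%, 77.1% and 76.9%, and Prlr in 91.6%, 87.4%, 95.7% and 91.8%. No alternative varied the hormone-sensing cutoff, so its part in the luminal share was not tested. The amount of gland included at dissection was not recorded in the labels and cannot be told apart from age in the share of all kept nuclei. In the share with nuclei over 300 genes and 500 UMIs the difference was 3.31 points, still without overlap.

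**Figure D3:**
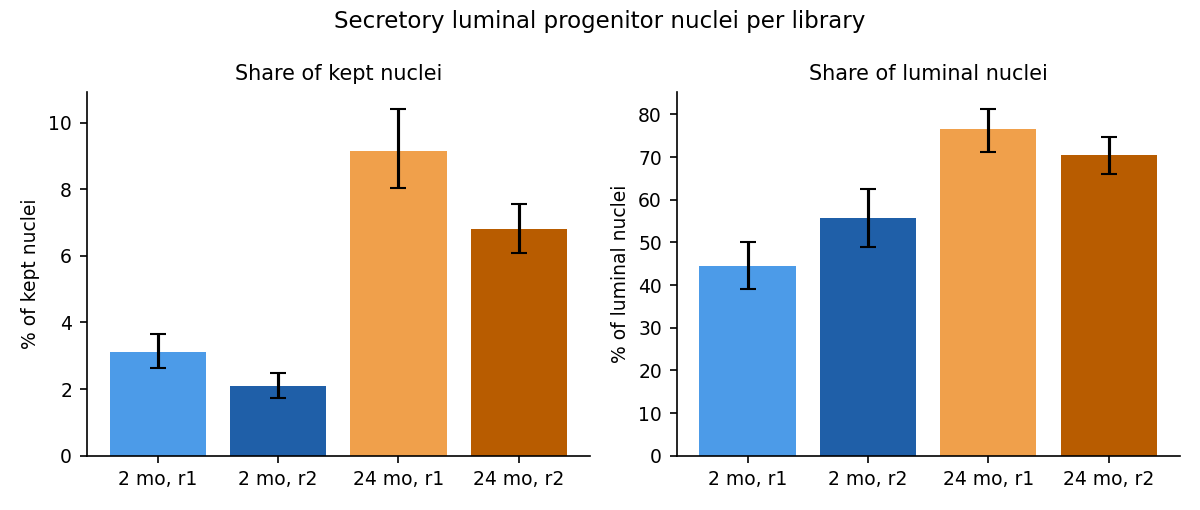
Share of secretory luminal progenitor nuclei in each library, as % of kept nuclei (left) and as % of secretory plus hormone-sensing luminal nuclei (right). Bars are libraries and whiskers exact 95% counting intervals, and both older libraries lie above both younger ones in each panel.

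At least 2 UMIs of Mki67 and Top2a, genes of proliferating cells, were found in 2 of 143, 5 of 120, 5 of 228 and 12 of 320 members, 24 of 811 in all. Hormone-sensing nuclei gave 11 of 477. At this depth a nucleus without these UMIs may still be cycling, so the counts are no share of dividing nuclei. None of the 10 cell cycle genes tested was called with age, and their median log2 fold change was -0.21.

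Age differences in gene expression were tested on UMIs summed per library over member nuclei. Of 9238 genes tested with edgeR, 46 (0.498%) were called higher and 42 (0.455%) lower at 24 months at an adjusted p under 0.05, 88 (0.953%) in all, and 1199 had an unadjusted p under 0.05. DESeq2 called 65. Without the 2-month replicate 1 library 344 were called (249 higher), without the 2-month replicate 2 only 48 (20 higher) and without the 24-month replicate 1 205 (146 higher). With 0 other-cell UMIs allowed 55 were called, and 482 with no filter on low counts. The median log2 fold change over all genes was -0.02. The genes named first are those with the largest changes by a set rule.

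Among the 10 named genes that rose was Fcgbp, which encodes a mucin-like secreted protein that binds the Fc part of IgG (chr7:27770661-27820287, plus strand, GRCm39). It was at 321 and 272 CPM at 2 months and at 3563 and 2457 CPM at 24 months. UMIs lay in 42 of 143, 25 of 120, 180 of 228 and 248 of 320 members, a minority of members at 2 months and most of them at 24 months. Its log2 fold change was 3.36 (SE 0.38, adjusted p = 0.00249, edgeR) and no alternative ended the call. In hormone-sensing nuclei Fcgbp was at 72.4, 103, 614 and 604 CPM, and in the remaining SAT nuclei at 15.8 to 106 CPM.

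A pair of lipoxygenase genes that lie 21515 bases apart on chromosome 11 rose together. Alox12e (chr11:70206436-70213454, minus strand), an epidermal-type 12-lipoxygenase, was at 5.59 and 0 CPM at 2 months and at 366 and 174 CPM at 24 months, with UMIs in 1, 0, 55 and 33 nuclei. From the counts its level was 75.4 times higher (95% counting interval 20.7 to 625; adjusted p = 0.00249, edgeR). Alox15 (chr11:70234970-70242858, minus strand), a 12/15-lipoxygenase that oxidizes polyunsaturated fatty acids, had no UMI at 2 months and was at 76.5 and 36.1 CPM at 24 months, at least 10.5-fold higher against a floor of 3 counts over the group (adjusted p = 0.0276, edgeR). Without the 24-month replicate 1 library Alox15 was no longer called. These 2 genes are related in sequence, and reads that fit both could be split between them.

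Fgb, the fibrinogen beta chain gene, had no UMI in members at 2 months and was at 167 and 159 CPM at 24 months, at least 31.6-fold higher (adjusted p = 0.00193, edgeR). Its 259 UMIs lay in 9 and 12 nuclei, and a single nucleus held 78.0% of those in replicate 1. Hormone-sensing nuclei held Fgb at 8.05, 46.8, 597 and 210 CPM. The difference therefore rested on few members, and the gene was higher in hormone-sensing nuclei in each library.

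Amtn, which encodes the tooth-enamel protein amelotin, was at 2.79, 0, 125 and 107 CPM in 1, 0, 25 and 30 nuclei, 67.0 times higher (95% counting interval 11.9 to 2660; adjusted p = 0.00249, edgeR). Upk3a, a uroplakin of the urothelial surface, was at 0, 4.45, 51.0 and 88.1 CPM, and at 3.45, 103, 554 and 199 CPM in hormone-sensing nuclei (adjusted p = 0.0236 in members, edgeR). The call was lost without the 24-month replicate 2 and by DESeq2.

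Further named genes that rose were Eva1c and the pseudogenes Gm12854 and Gm10269. None of these 3 was called by DESeq2 or without the 2-month replicate 2. Eva1c and Gm12854 were also lost without the 24-month replicate 1 and with 0 other-cell UMIs allowed, Eva1c without the 2-month replicate 1, and Gm12854 and Gm10269 without the 24-month replicate 2. Pseudogenes made up 10 of the 46 genes that rose, 0 of the 42 that fell and 1.27% of all genes tested. Those that rose include copies of ribosomal protein genes such as Rpl18-ps2, Rps15a-ps7 and Rpl38-ps2. Their reads cannot be told apart with certainty from those of the parent genes. Only Gm12854 and Gm10269 belong to the 10 with the largest change.

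Further genes that rose are named here after their values were seen, except Csmd1, which is also among the 15 highest against hormone-sensing nuclei. Kcnd2, a voltage-gated potassium channel subunit (chr6:21214866-21729804, plus strand), was at 212 and 214 CPM at 2 months and at 1219 and 1004 CPM at 24 months (log2 2.41, SE 0.30, adjusted p = 0.00366, edgeR). Csmd1, a large transmembrane complement regulator, was at 419, 717, 1977 and 2171 CPM (log2 1.90, adjusted p = 0.0294). Clu, the secreted chaperone clusterin, was at 235, 183, 659 and 910 CPM (log2 1.92, adjusted p = 0.0172), while hormone-sensing nuclei held 136, 232, 144 and 279 CPM. No alternative ended the call of Kcnd2 or Clu, and Csmd1 was lost with 0 other-cell UMIs allowed.

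Also higher at 24 months were Clca3a2, a chloride channel accessory protein of secretory epithelia, at 377, 227, 849 and 1154 CPM, and Dclk1, a microtubule-associated kinase, at 218, 147, 584 and 713 CPM (adjusted p = 0.0307 and 0.0218, edgeR). Wnt4, the WNT ligand that hormone-sensing cells release, was at 22.3 and 8.90 CPM at 2 months and at 99.2 and 116 CPM at 24 months in members (log2 2.68, adjusted p = 0.0236, edgeR). It was at 177, 153, 379 and 723 CPM in hormone-sensing nuclei, so members stayed below that class in each library. Wnt4 was the only one of the 8 further hormone-sensing markers tested that was called, where 0.498% of all genes were called higher. Cd44, a hyaluronan receptor, was at 92.2, 120, 266 and 375 CPM, and Thbs1, the matrix protein thrombospondin 1, at 106, 62.3, 257 and 282 CPM (adjusted p = 0.0294 for both, edgeR). Without the 2-month replicate 2 library, Wnt4, Cd44, Thbs1, Dclk1 and Clca3a2 were no longer called.

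Of the other genes that rose, 5 more are given, again named after their values were seen and with no count or test of a group. The chaperone gene Hsp90aa1 was at 16.8, 40.1, 123 and 111 CPM, the chaperone gene Hspa8 at 126, 89.0, 332 and 455 CPM, and the endoplasmic reticulum chaperones Hspa5 and Calr at 151, 120, 364 and 330 CPM and at 159, 156, 356 and 386 CPM. Eef1a1, a translation elongation factor with many pseudogene copies, was at 61.5, 44.5, 255 and 307 CPM (log2 2.40, adjusted p = 0.00486, edgeR). Without the 2-month replicate 2 library Hspa8, Hspa5 and Calr were no longer called, and DESeq2 did not call Hsp90aa1, Hspa5 or Calr. Hsp90aa1 was also lost without the 2-month replicate 1 and Hspa5 with 0 other-cell UMIs allowed. Calr was lost in 5 alternatives in all. The mitochondrial share of members was higher in the same libraries, as given above, and its part in these differences was not tested. None of the 10 mitochondrial genes tested was itself called (median log2 1.31, lowest adjusted p = 0.196).

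**Figure D4:**
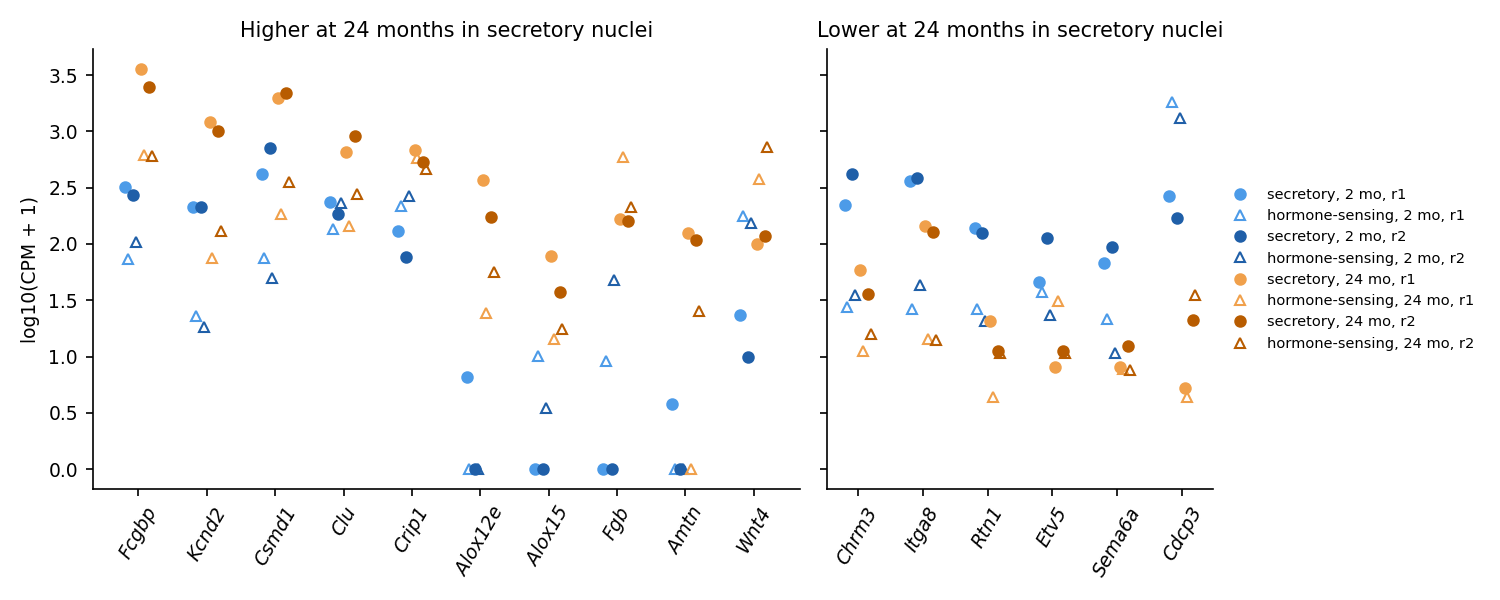
Level of selected called genes as log10(CPM + 1) (y axis) in each of the 4 libraries, for secretory (filled circles) and hormone-sensing nuclei (open triangles). In secretory nuclei the older libraries lie above the younger for the 10 genes at left and below for the 6 at right.

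Most genes that fell were held at higher levels by other nuclei of the tissue. Of the 42, 30 were lower on average in members than in the remaining SAT nuclei, while of the 46 that rose 3 were, against 40.2% of all 9238 genes tested. Of the 10 named by the rule, 9 are of this kind: Gimap6, Lef1, Gm2682, Klhl6, Trac, Cd79b, Ighd, Cd53 and Cmah. Of these, Cd53 lost its call without each library in turn and by DESeq2, Klhl6 without the 2-month replicate 2 and without either 24-month library, Gimap6, Gm2682 and Cmah without the 2-month replicate 2, and Cmah also with 5 secretory UMIs required. Ighd, the constant region gene of immunoglobulin D, was at 145, 134, 7.09 and 16.9 CPM in members and at 535, 436, 44.6 and 47.4 CPM in the remaining nuclei (log2 -3.45 in members, adjusted p = 0.00366, edgeR). Trac, the T-cell receptor alpha constant gene, was at 27.9, 66.8, 1.42 and 4.52 CPM, against 216, 335, 44.6 and 11.3 CPM. Both sets of nuclei were lower in the older libraries, and the call of Trac was lost without either 24-month library or the 2-month replicate 2.

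The immune marker list of 10 genes was lower in the older libraries as a whole. It summed to 542, 659, 186 and 166 CPM in members, to 410, 537, 171 and 159 CPM in hormone-sensing nuclei, and to 3313, 3553, 2042 and 1552 CPM in the remaining nuclei. No marker of the list was at 0 in members. With 0 other-cell UMIs allowed, Cd79b and Bank1 were not called. Without the 2-month replicate 2 both were lost too, Cd79b also without either replicate 1, Bank1 with 5 secretory UMIs required and without the highest 5% of Scrublet scores, and Cd74 without the 24-month replicate 1. Of its 6 genes tested, 3 (Cd79b, Bank1 and Cd74) were called lower, where 0.455% of all genes were, and the median log2 fold change was -1.93, against -0.02 over all genes. Of the 7 genes of MHC class II presentation 1 was called lower, Cd74, the invariant chain, at 226, 209, 62.4 and 81.3 CPM. The part of free RNA from immune cells in these differences was not tested.

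The remaining named gene that fell was Cdcp3, a CUB-domain gene, at 268 and 169 CPM at 2 months and at 4.25 and 20.3 CPM at 24 months (log2 -4.05, SE 0.47, adjusted p = 0.00277, edgeR). Its UMIs lay in only 13, 3, 1 and 5 members. Hormone-sensing nuclei held 1838, 1301, 3.36 and 34.5 CPM, and the remaining nuclei 245, 119, 4.93 and 5.31 CPM. Cdcp3 was thus lower in the older libraries in each set of nuclei.

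Of the 12 genes that fell and were at least as high in members as in the remaining nuclei, 7 besides Cdcp3 are given, named after their values were seen. Chrm3, the muscarinic acetylcholine receptor M3, which drives fluid secretion in glands, was at 223 and 419 CPM at 2 months and at 58.1 and 35.0 CPM at 24 months (log2 -2.75, SE 0.37, adjusted p = 0.00512, edgeR, with the call kept in every alternative). Itga8, the integrin alpha 8 chain, was at 358, 383, 143 and 128 CPM (log2 -1.43, adjusted p = 0.0276). Rtn1, a reticulon of the endoplasmic reticulum, was at 137, 125, 19.8 and 10.2 CPM (log2 -3.12, adjusted p = 0.00486). Chrm3 and Itga8 were at 34.5 CPM or less and at 41.9 CPM or less in hormone-sensing nuclei.

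Etv5, an ETS-family transcription factor downstream of growth factor receptors, was at 44.7, 111, 7.09 and 10.2 CPM, Sema6a, a transmembrane semaphorin, at 67.0, 93.5, 7.09 and 11.3 CPM, and Ror1, a receptor for WNT5A, at 207, 240, 92.1 and 74.5 CPM (adjusted p = 0.0328, 0.0225 and 0.0372, edgeR). Enah, an actin regulator, was at 246, 196, 66.6 and 89.2 CPM, and at 583, 407, 161 and 172 CPM in hormone-sensing nuclei. Enah was not called without the 2-month replicate 1, without the 24-month replicate 1, with 0 other-cell UMIs allowed or by DESeq2. Fkbp5, a glucocorticoid-induced co-chaperone that was not higher in members on average, was at 212, 196, 80.8 and 70.0 CPM, with 212, 196, 122 and 80.4 CPM in the remaining nuclei. For Etv5, Sema6a, Itga8, Ror1 and Fkbp5 the call was lost without the 2-month replicate 2, and for Itga8, Ror1 and Fkbp5 also without the 24-month replicate 2. Etv5 and Ror1 were lost too with 0 other-cell UMIs allowed, Etv5 with 5 secretory UMIs required, and Ror1 and Fkbp5 by DESeq2.

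**Figure D5:**
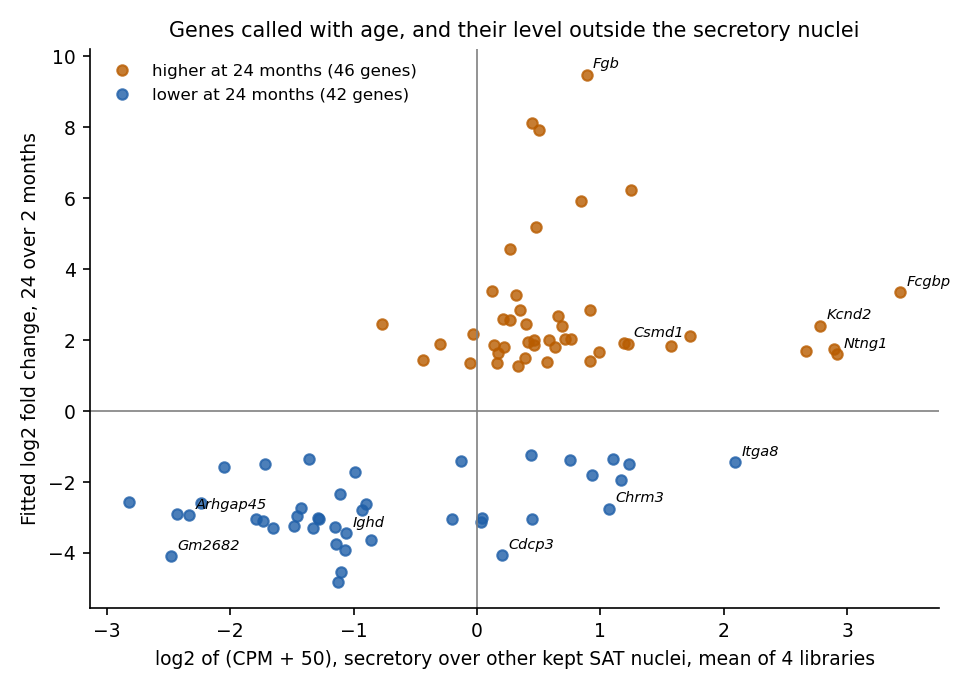
Fitted log2 fold change at 24 over 2 months (y axis) of the 88 genes called in secretory nuclei against the log2 ratio of CPM plus 50 in secretory over remaining SAT nuclei (x axis, mean of 4 libraries). Genes that fell lie mainly left of 0, where the level is higher in the remaining nuclei, and genes that rose mainly right of it.

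The other gene lists held no further call. In the mucosal defence list, Wfdc2 and Cxcl15 were lower and Lcn2 higher than in hormone-sensing nuclei in all 4 libraries, of 15 genes with enough counts (background 0.787% lower and 1.43% higher). With age, 0 of 10 genes tested outside the rule were called, with 9 fitted higher at 24 months and a median log2 fold change of 0.97 against -0.02 over all genes. The nearest was C3, complement component 3, at 19.6, 13.4, 56.7 and 131 CPM (log2 2.49, adjusted p = 0.0608, edgeR). Of the 14 further secretory markers tested, 0 were called (median 0.34), and of the 14 pan-epithelial markers 0 were called although all 14 were fitted higher (median 0.72). Krt8, a luminal keratin, was at 243, 111, 565 and 385 CPM (adjusted p = 0.0878). Sox9, a progenitor transcription factor, was at 156, 147, 285 and 391 CPM (adjusted p = 0.0812).

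No gene was called in the lists of Notch (12 tested, median -0.09), KIT and ERBB (8, -0.05), prolactin signalling (11, 0.10), junctions (16, 0.17), luminal transcription factors (17, 0.06), paracrine receptors (17, -0.25), senescence and stress (8, 0.49) or the interferon response (11, -0.01). The same held for basal (5, -0.10), adipocyte (6, 0.35), fibroblast (5, -0.88) and endothelial markers (3, -0.60). The adipocyte list summed to 455, 289, 288 and 647 CPM in members and the fibroblast list to 254, 280, 70.9 and 303 CPM.

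Whether an age difference was particular to the secretory class was tested by the interaction of class and age over 8 sums. Of 10146 genes tested with edgeR, 0 (0%) were called, 1016 had an unadjusted p under 0.05, and the lowest adjusted p was 0.233. DESeq2 also called 0, with 322 at an unadjusted p under 0.05. This count rests on the filter, since 141 genes were called with no filter on low counts and all libraries kept. It also rests on the libraries used, since it rose when either 2-month library was left out, which leaves a lone library at that age. With all libraries and the filter on low counts, no age difference given above was shown to be particular to secretory nuclei.

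The genes with the smallest unadjusted p of this test, which were not called, are given as values. Those with the more positive difference in secretory nuclei included Jak2, Rab3c, Klf4, Rpl21, Gsr, Tle4, Cav1, Tmem176a and Imp3. Jak2, the kinase bound to the prolactin receptor, was at 64.3, 53.4, 76.5 and 86.9 CPM in secretory nuclei and at 353, 476, 128 and 163 CPM in hormone-sensing ones. Those with the more negative difference included Greb1l, Cdc14a, Wipf1, Fgf14, Wnk2, Heg1, Kitl, Trim14 and Celf4. For Kitl, given above by library, the interaction log2 was -1.72 (unadjusted p = 0.000304, edgeR, adjusted p at least 0.233).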

How the data were processed

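Nuclear RNA of 4 SAT libraries, 2 per age, was analysed. Per the study's methods, the authors captured nuclei with a Singleron GEXSCOPE kit and aligned and counted reads with Celescope against GRCm39. The version and annotation release are not given in the sources used here. What the authors deposited are UMI counts for each gene in each barcode, with no normalization. A label naming another capture platform and a label naming all cells adipocytes were not used. Members and gene lists were chosen with earlier results of these data known.

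Nuclei were kept by the study's filters, and classes were set by the UMI rules given in the report. Scrublet (scanpy 1.11.5) marked 25 of 17570 kept nuclei (0.142%) and 0 members, which is too few to have worked. Removing the highest 5% of scores, which held 30 members, was therefore added after seeing the data, as was requiring 5 secretory UMIs for the gene tests. Counts were summed per library and class and tested with edgeR 4.0.16 (quasi-likelihood, TMM, filterByExpr, Benjamini-Hochberg over all genes tested) in R 4.3.3, and with DESeq2 1.42.0 as an alternative. The interaction test had library as a block. Both fits were run first on simulated counts with the same spread for every gene. That setting holds no gene carried mainly by a single nucleus, so it does not show how such genes are handled. Shares were compared with exact permutation tests (scipy 1.17.1). Named genes were the 10 per direction with the largest log2 fold change among called genes with 20 or more member UMIs and no overlap between ages, and the highest and lowest genes against other nuclei, on CPM with a prior of 50. Rule genes that passed the count filter were fitted and adjusted with the rest, but they are described without a test. Gene positions come from GENCODE M39. Of 301 list symbols 300 were found. The depth of 224608 to 885785 member UMIs per library limits the test to genes of moderate and high level, and intervals and floors cover counting error only. Some genes that the naming rule covers are not reported here.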

Additional observations from a re-analysis of the deposited data

Results flagged for a closer look

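The rule was also applied to the visceral libraries, which no comparison uses. In VAT at 24 months replicate 1, 0 of 4434 kept nuclei passed, which allows a share of up to 0.0832%, and in replicate 2, 71 of 5070 passed (1.40%, exact 95% upper limit 1.76%). These 71 nuclei had no UMI of Csn3 or Btn1a1. They carried 345 UMIs of Ltf and 819 of Ovgp1, which encodes oviductal glycoprotein 1, the latter in 61 of 71 nuclei, and Pax8, a transcription factor of the female reproductive tract, in 48. The 71 nuclei therefore met the rule mainly through Ltf and are not counted as members.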

How the results depend on the processing

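Every alternative kept the older libraries above the younger in both shares. The difference in the share of kept nuclei was 3.31 points with nuclei over 300 genes and 500 UMIs, and leaving out each library in turn gave 4.20 to 6.56 points, and 17.7 to 28.9 points in the luminal share. The count of genes called with age was 482 with no filter on low counts and 55 with 0 other-cell UMIs allowed, where fewer nuclei entered. Leaving out each library gave 48 to 344 calls, namely 344 without the 2-month replicate 1, 48 without the 2-month replicate 2 and 205 without the 24-month replicate 1. Lone libraries are assumed to vary like those of the other age. In the interaction test, 141 genes were called with no filter, and leaving out each library gave 0 to 487, with 487 without the 2-month replicate 1 and 16 without the 2-month replicate 2; the cause was not tested. Removing Scrublet's doublets took out 0 members and so could not change an age call. Of the called genes, 11 that rose and 9 that fell kept the call in every alternative that tested them, and no gene named with an age call changed direction. Of 55 such genes tested without the 2-month replicate 2, 33 lost the call. Testing only genes at least as high in members as in the remaining nuclei gave 52 higher and 15 lower calls.

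The replicate numbers are shared by the ages but nothing says that they pair libraries, and the deviations of same-numbered libraries correlated at -0.09 over 9238 genes. A replicate block raised the count of age calls to 281 (162 higher, 119 lower), all 88 included. The interaction test called 0 genes without the library block.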
